A study of Caenorhabditis elegans with 3 samples.

Results

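The 10 genes described here encode the core of the insulin-like signalling pathway of Caenorhabditis elegans and its 14-3-3 partners. They are daf-2, age-1, pdk-1, akt-1, akt-2, sgk-1, daf-18, daf-16, ftt-2 and par-5, and they make up 10 of 19985 annotated protein-coding genes. They were chosen by name as known pathway genes, with earlier results of these data known. Binding of the chromatin regulator EGL-27 at them was read from chromatin immunoprecipitation sequencing (ChIP-seq) peak lists of whole larvae at the L1 stage, the earliest larval stage. All 3 biological replicates belonged to a single group, strain OP177 with genotype unc-119(ed3) III; wgIs177, mixed sex and of unknown age, in which an integrated transgene supplies EGL-27 with a GFP tag (a C-terminal GFP-FLAG tag, per the note on replicate 3). Replicates 1 and 2 carry a size range of 150 to 350 bp and came from the stock centre CGC, whereas replicate 3 was sonicated with a microtip and came from the submitting laboratory. Every replicate carried the transgene and the unc-119 mutation, so neither was compared with its absence. EGL-27 is related to the MTA subunits of nucleosome remodelling and deacetylase complexes. The question is where EGL-27 bound at these loci. A gene's window ran from 5000 bp upstream of its outermost 5′ end to the gene end, and a gene was counted when a peak summit lay in its window.

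In this pathway, insulin-like peptides act on the receptor DAF-2, which activates the lipid kinase AGE-1. The lipid it makes recruits PDK-1, which activates the kinases AKT-1, AKT-2 and SGK-1, and the phosphatase DAF-18 removes that lipid. AKT kinases phosphorylate the FOXO transcription factor DAF-16, and the 14-3-3 proteins FTT-2 and PAR-5 bind phosphorylated DAF-16, which is then held in the cytoplasm. The pathway is known for its control of dauer arrest, L1 arrest during starvation, stress resistance and lifespan.

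The authors' list thresholded by the irreproducible discovery rate (IDR), a measure of agreement between replicates, held 705 peaks with signal values from 31.5 to 252.5. It was identical to the 705 highest-signal peaks of their pooled list, which held 23218 peaks. The relaxed lists of replicates 1, 2 and 3 held 15286, 30000 and 30000 peaks and keep background by design. Signal is the peak height that the authors' caller gave, on an unstated scale, and it served only to rank peaks within a list. Ranks in lists of different length were not compared as levels, so each replicate was also cut to its 705 highest-signal peaks, called its top list. A replicate was counted as having a peak at a pooled summit when that summit fell inside one of its peaks. Of the IDR summits, 198 lay in the top lists of all 3 replicates, 255 in those of 2, 210 in that of 1 and 42 in none. The read depth of each library is unknown, and no untagged sample was analysed here. Whether the untagged background contributes to any peak below was not tested.

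EGL-27 peaks on the IDR list were found at 4 of the 10 genes, the receptor gene daf-2, the kinase gene akt-2, the FOXO gene daf-16 and the 14-3-3 gene ftt-2. By the same rule 5.37% of all protein-coding genes had one. Because the 10 genes were listed with earlier results of these data known, shares and densities set beside all genes describe this list and test no enrichment. The remaining 6 genes, age-1, pdk-1, akt-1, sgk-1, daf-18 and par-5, had none. The 14-3-3 gene ftt-2 stood far above the others, with the peaks of rank 8 and rank 18. The other 4 IDR summits ranked between 353 and 628, in the lower part of the list. Both ftt-2 and daf-16 held 2 IDR summits, as did 0.435% of all genes when genes with 2 or more are counted. In promoter windows, which reached 1000 bp upstream and 500 bp downstream of each transcript 5′ end, 3 of the 10 genes (akt-2, daf-16 and ftt-2) held an IDR summit, against 2.22% of all genes.

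The sequences that carry these results outside daf-16 are both ftt-2 peaks whole and 100 bp either side of the akt-2 and daf-2 summits. They are given 5′ to 3′ on the plus strand of WBcel235. Capitals mark the short words searched for on both strands within 50 bp of each summit, which were GAGAGA, CTGCGTCTC, the E-box CACGTG, the GATA word GATAA and the DAF-16 binding element GTAAACA. The first line is the ftt-2 peak of rank 8, chrX:11605962-11606171, with its summit at 11606073. The second is the ftt-2 peak of rank 18, chrX:11606235-11606335, with its summit at 11606329, and its capitals are GATAA read on the minus strand. This summit lies close to the right end of the peak, so the search reached beyond the printed letters. No other match was found there. Because ftt-2 lies on the minus strand, the left end of each line is the end nearer to the gene. The third is akt-2, chrX:14146848-14147048, with capitals for GAGAGA on the minus strand. The fourth is daf-2, chrIII:3036121-3036321, with capitals for GAGAGA and for the reverse complement of CTGCGTCTC.
ftt-2, rank 8: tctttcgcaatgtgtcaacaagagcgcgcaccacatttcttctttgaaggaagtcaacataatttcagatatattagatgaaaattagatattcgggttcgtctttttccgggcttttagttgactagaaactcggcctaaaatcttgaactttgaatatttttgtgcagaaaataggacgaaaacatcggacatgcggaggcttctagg
ftt-2, rank 18: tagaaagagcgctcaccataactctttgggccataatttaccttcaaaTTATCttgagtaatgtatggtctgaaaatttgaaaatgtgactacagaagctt
akt-2, rank 353: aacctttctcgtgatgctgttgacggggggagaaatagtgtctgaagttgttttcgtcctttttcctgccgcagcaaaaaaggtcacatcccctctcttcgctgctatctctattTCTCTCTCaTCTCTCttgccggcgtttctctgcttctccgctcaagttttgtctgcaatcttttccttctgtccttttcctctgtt
daf-2, rank 523: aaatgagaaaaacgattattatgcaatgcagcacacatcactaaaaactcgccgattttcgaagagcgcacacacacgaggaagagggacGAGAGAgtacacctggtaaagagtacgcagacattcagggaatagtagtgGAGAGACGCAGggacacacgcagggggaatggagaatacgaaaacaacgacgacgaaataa

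The ftt-2 sequences differed from those of akt-2 and daf-2 in their letters. The share of G and C was 38.6% in the ftt-2 peak of rank 8 and 34.7% in that of rank 18. Neither held GAGAGA or CTGCGTCTC within 50 bp of the summit. The same was true of the daf-16 summit of rank 580. Both words were also absent at 363 of 704 nuclear IDR summits (51.6%) and at 9 of the 19 ranked 20 or higher, so this absence is not particular to ftt-2. The akt-2 and daf-2 stretches were richer in G and C than both ftt-2 peaks (46.8% and 46.3%). They held 3 and 2 copies of GAGAGA, those of akt-2 on the minus strand with 2 of them overlapping. The stretches differ in length, 210 and 101 bp for ftt-2 against 201 bp for akt-2 and daf-2, and the ftt-2 peak of rank 18 is not centred on its summit. The share of G and C over the genome was not computed. At daf-2 the second GAGAGA overlapped the CTGCGTCTC match. Over 704 nuclear IDR summits, GAGAGA lay within 50 bp of 41.3% and CTGCGTCTC of 15.2%, against 5.18% and 0.39% of 992797 genome windows of the same length of 101 bp. GATAA, found at the ftt-2 peak of rank 18 only, lay at 15.8% of IDR summits and in 21.1% of genome windows, and CACGTG, found at none of the 6 summits, at 6.53% and in 1.67%. The ftt-2 peak of rank 8 held none of the 5 words, and neither did 265 of the 704 IDR summits (37.6%) or 6 of the 19 nuclear summits ranked 20 or higher. A match or its absence describes these letters in this window and says nothing about which factor bound.

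The gene for the receptor, daf-2 (WBGene00000898, chromosome III, 2994514 to 3040846, minus strand), held a single IDR summit in a window of 51333 bp. It had signal 36.5 and rank 523 and lay in an intron, 4625 bp downstream of the nearest daf-2 5′ end, within a long non-coding RNA gene, linc-143, annotated on the same strand. The peak at this position ranked 424 in replicate 1 (signal 9.07), 1027 in replicate 2 (signal 13.0) and 1054 in replicate 3 (signal 14.04). Every replicate thus had a peak there, but only that of replicate 1 was in a top list. The summits of replicates 2 and 3 lay −13 and −39 bp from the pooled summit and that of replicate 1 lay −106 bp away, negative values being upstream. The pooled list held 17 summits across the window, and 32 were called in replicate 2 against 9 and 10 in replicates 1 and 3. The second-ranked summit of replicate 2, of rank 1128, lay 6408 bp downstream of the same 5′ end, also in intronic sequence.

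Downstream of the receptor, age-1 (WBGene00000090, chromosome II, 11519328 to 11527054), which encodes the catalytic subunit of the lipid kinase, had the lowest-ranked best summit of the 10 genes. It ranked 14452 in the pooled list, with signal 9.77 and a deposited −log10 q-value of 0.0933, and 59.3% of all genes had a summit of higher signal. Replicate 1 had no summit in the age-1 window. The single summit of replicate 2 (rank 2844) lay in a coding exon at +2356 bp and that of replicate 3 (rank 13658) in a coding exon at +38 bp. No replicate peak held the best pooled summit. The replicate 2 summit lay beside the second pooled summit, which was at +2353 bp with rank 16749, and the 2 replicates with a summit thus placed it at different sites. The gene pdk-1 (WBGene00003965, chromosome X, 1321344 to 1327986) encodes the kinase that activates AKT proteins. Its best pooled summit, at −1465 bp, had rank 1678 and signal 21.4. At that position replicate 3 had a peak of rank 342 (signal 23.0), replicate 1 one of rank 3516 (signal 4.31) and replicate 2 none. The best summit of replicate 2 ranked 945 and lay elsewhere, at −690 bp. A second pooled summit lay in an intron at +1883 bp (signal 20.9). Replicate 3 had a summit of rank 815 (signal 15.7) at the same position, and the best of replicate 1 was near it, at +1937 bp and rank 3070.

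The paralogues akt-1 and akt-2 encode AKT kinases that phosphorylate DAF-16, and akt-2 alone held an IDR summit. At akt-2 (WBGene00000103, chromosome X, 14147700 to 14152070, plus strand) it lay 752 bp upstream of the 5′ end of both annotated transcripts, with rank 353 and signal 42.9, the median of the IDR list. The peak there ranked 2471 in replicate 1 (signal 4.94), 3198 in replicate 2 (signal 9.63) and 483 in replicate 3 (signal 19.97). Replicate 3 alone placed it in its top list, although all 3 replicates had their best akt-2 summit at this site, at −80, 35 and −34 bp from the pooled one. At akt-1 (WBGene00000102, chromosome V, 10248905 to 10252845, plus strand) the best pooled summit lay at −2336 bp with rank 1100 and signal 25.9, below the lowest IDR signal of 31.5. It ranked 1233 in replicate 1, 21209 in replicate 2 and 3561 in replicate 3. The best akt-1 summit of replicate 2 had rank 704, just inside its top list, but lay at +3755 bp in an untranslated exon near the 3′ end. Replicates thus ranked akt-1 through different positions. By best summit, akt-1 ranked above akt-2 in replicate 1 (1233 against 2471) and in replicate 2 (704 against 3198). In replicate 3 it ranked below akt-2 (1729 against 483). The related kinase gene sgk-1 (WBGene00004789, chromosome X, 16254842 to 16262122, minus strand) had a best pooled summit of rank 4849 and signal 14.5 at −4010 bp. It fell inside a peak of replicate 2 (rank 11803), while nearby peaks of replicates 1 and 3 (ranks 2488 and 9681) had their summits at −4291 and −4245 bp. The pooled summit lay 446 bp from a 5′ end of the neighbouring gene mua-6.

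The antagonist of the kinases, daf-18 (WBGene00000913, chromosome IV, 420011 to 425177, minus strand), encodes a phosphatase and was second from the bottom. Its best pooled summit had rank 7767 and signal 12.3 in a coding exon at +1232 bp, and 39.9% of all genes had a higher one. The best summit of replicate 1 (rank 8493) lay upstream at −2182 bp, that of replicate 2 (rank 7581) in an intron at +1115 bp and that of replicate 3 (rank 3314) in a coding exon at +2728 bp. The 3 replicates thus gave 3 separate positions, none of them ranked near a top list.

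The FOXO gene daf-16 (WBGene00000912, chromosome I, 10750498 to 10776703, plus strand) had the most pooled summits of the 10 genes, 20 in a window of 31206 bp, and 2 of them were IDR summits. It is annotated with 11 transcripts from 7 different 5′ ends, which encode isoforms of the transcription factor. The upstream IDR summit had rank 580 and signal 34.9 and lay 423 bp upstream of the outermost 5′ end, where 2 non-coding RNA genes, H36N01.1 and H36N01.4, are annotated on opposite strands. The internal one had rank 628 and signal 33.3 and lay in an intron, 19413 bp downstream of the outermost 5′ end and 1597 bp upstream of an internal one, that of transcript R13H8.1a.1.

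At the upstream daf-16 summit the replicate peaks ranked 1250 in replicate 1 (signal 6.20), 877 in replicate 2 (signal 13.5) and 860 in replicate 3 (signal 15.3). All 3 summits lay close to the pooled one, at 36, −9 and −43 bp, and none was in a top list. At the internal summit the ranks were 509 in replicate 1 (signal 8.49), 12545 in replicate 2 (signal 6.26) and 270 in replicate 3 (signal 25.6). The internal peak was thus in the top lists of replicates 1 and 3 and far down the list of replicate 2. The best daf-16 peak of replicate 2, of rank 403 and signal 16.8, lay instead at +1322 bp. Replicates 1 and 3 also had peaks there, of rank 757 at +1352 bp and rank 2173 at +1345 bp. The pooled summit at this site had rank 873 and signal 28.9. So daf-16 was in the top list of every replicate, but not through the same peak in all 3. The upstream summit held the DAF-16 binding element GTAAACA, starting at −4 bp from the summit, a word found within 50 bp of 11 of the 704 IDR summits (1.56%) and in 1.12% of genome windows. The internal summit held 8 overlapping copies of GAGAGA.

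The 14-3-3 genes ftt-2 and par-5 ranked far apart. At ftt-2 (WBGene00001502, chromosome X, 11603708 to 11605419, minus strand) the IDR summits of rank 8 (signal 135.9) and rank 18 (signal 107.1) lay 654 and 910 bp upstream of the nearest 5′ end. The rank 8 peak ranked 8 in replicate 1 (signal 40.05), 28 in replicate 2 (signal 51.2) and 12 in replicate 3 (signal 62.7). The rank 18 peak ranked 68 in replicate 1 (signal 17.4), 40 in replicate 2 (signal 40.2) and 52 in replicate 3 (signal 46.9). Both peaks were therefore in the top list of every replicate, and the nearer one ranked higher in each of them. Only 0.065% of all protein-coding genes had a pooled summit of higher signal in their window.

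The paired ftt-2 peaks had separate summits in each replicate, but their intervals overlapped in all 3. Their summits lay 256 bp apart in the pooled list and 250, 211 and 224 bp apart in replicates 1, 2 and 3. A gap of 63 bp was present only between the pooled peaks. These were 210 and 101 bp wide, against a most common width of 390 bp in that list. Among 698 pairs of neighbouring IDR summits on the same chromosome, 11 were that close or closer, and the median spacing was 79222 bp. Replicate summits lay −5, −21 and −32 bp from the pooled summit of rank 8, all on the upstream side, and 1, 24 and 0 bp from that of rank 18. The nearest protein-coding 5′ end to either summit was that of ftt-2.

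At par-5 (WBGene00003920, chromosome IV, 11820506 to 11821924, minus strand) the best pooled summit had rank 1041 and signal 26.5 and lay at −337 bp. It ranked 2926 in replicate 1 (signal 4.64), 1608 in replicate 2 (signal 11.5) and 1124 in replicate 3 (signal 13.7). The best summit of every replicate lay in the same upstream stretch, at −276, −436 and −260 bp, but none reached a top list. That stretch is shared with the gene M117.3 on the other strand, whose 5′ end was 55 bp from the pooled summit. In the pooled list 7.62% of all genes had a higher summit than par-5 and 8.05% a higher one than akt-1, so both lay shortly below the IDR threshold. The pooled summits of par-5 and akt-1 and 2 further ones at daf-16 carried the same maximal −log10 q-value of 2.36 as every IDR peak, at signals from 25.9 to 28.9.

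**Figure D1:**
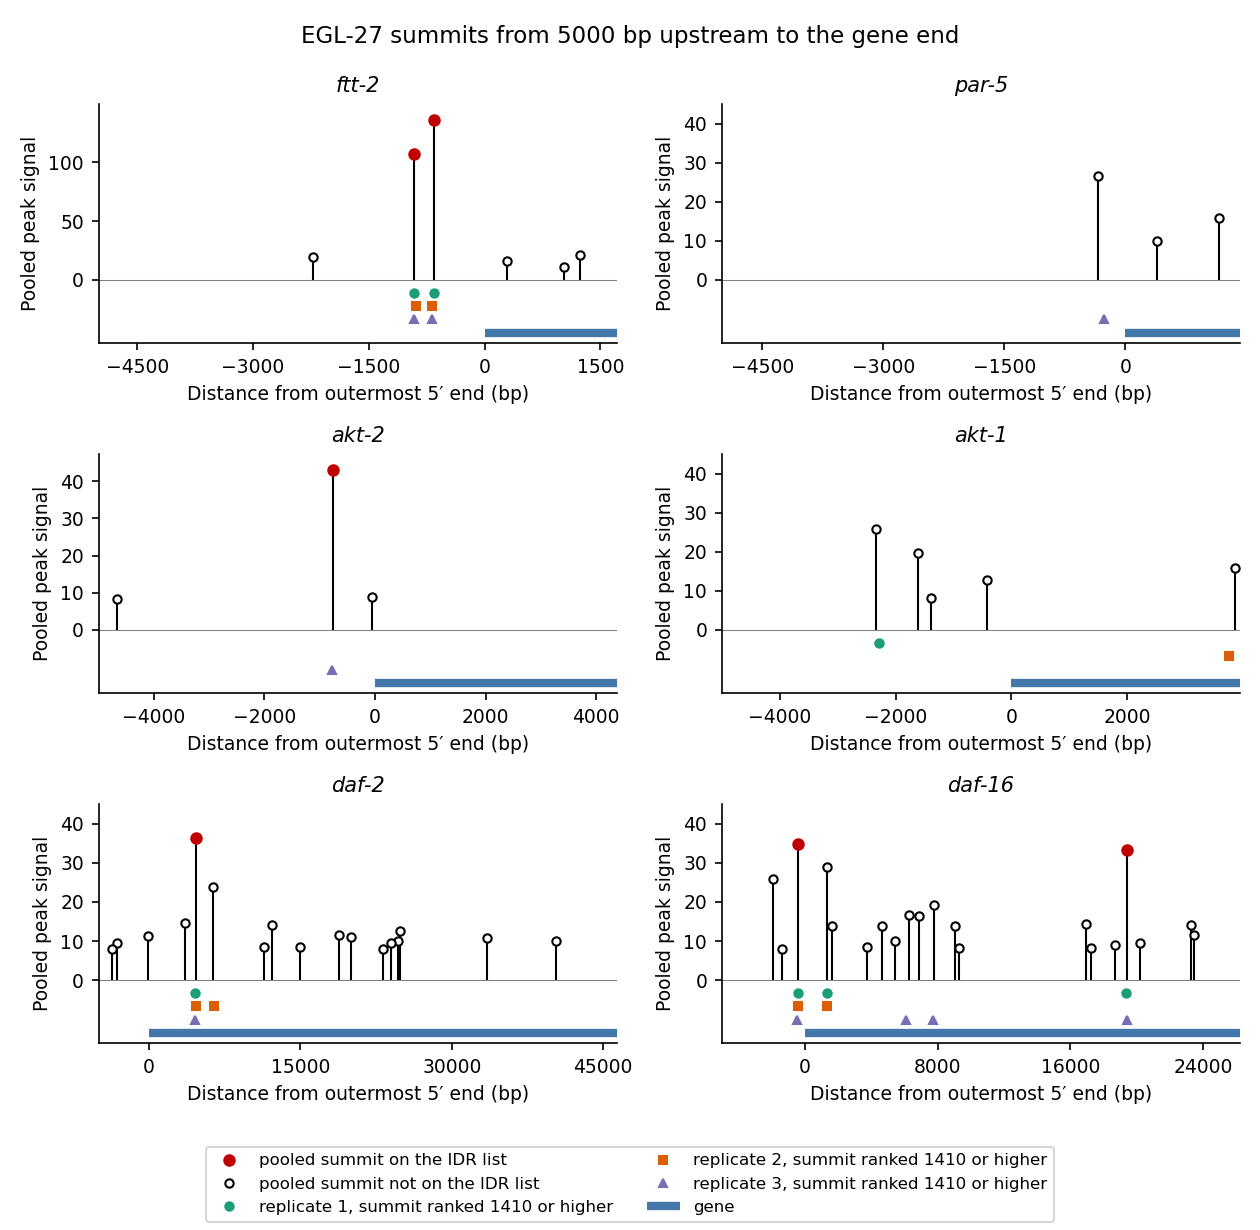
Pooled peak signal (vertical axis, the authors' height units, with a taller scale for ftt-2) against distance from the outermost 5′ end in bp for 6 of the genes; filled red circles are IDR summits, open circles other pooled summits, and coloured marks the summits ranked 1410 or higher in each replicate. The ftt-2 pair at −654 and −910 bp has marks from all 3 replicates, whereas the akt-2 summit has one from replicate 3 only.

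The relaxed pooled list did not separate the genes by presence alone. All 10 had at least 1 pooled summit, as did 75.2% of all protein-coding genes. The best pooled ranks of the 10 genes spread from 8 for ftt-2 to 14452 for age-1, with a median of 1070.5, against a median of 7143.5 over the 15036 protein-coding genes with a summit. The order was ftt-2, akt-2, daf-2, daf-16, par-5, akt-1, pdk-1, sgk-1, daf-18 and age-1. Below ftt-2 the replicates often departed from that order, and not only between neighbours. In replicate 2 the last gene, age-1 (rank 2844), stood above the second, akt-2 (rank 3198). For example, daf-2 ranked above akt-2 in replicates 1 and 2, and pdk-1 ranked above par-5 and akt-1 in replicate 3. In every replicate only ftt-2 ranked above all the other genes. Of the 71 pooled summits in these windows, 34 lay in introns, 25 upstream, 10 in coding exons and 2 in untranslated exons.

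**Figure D2:**
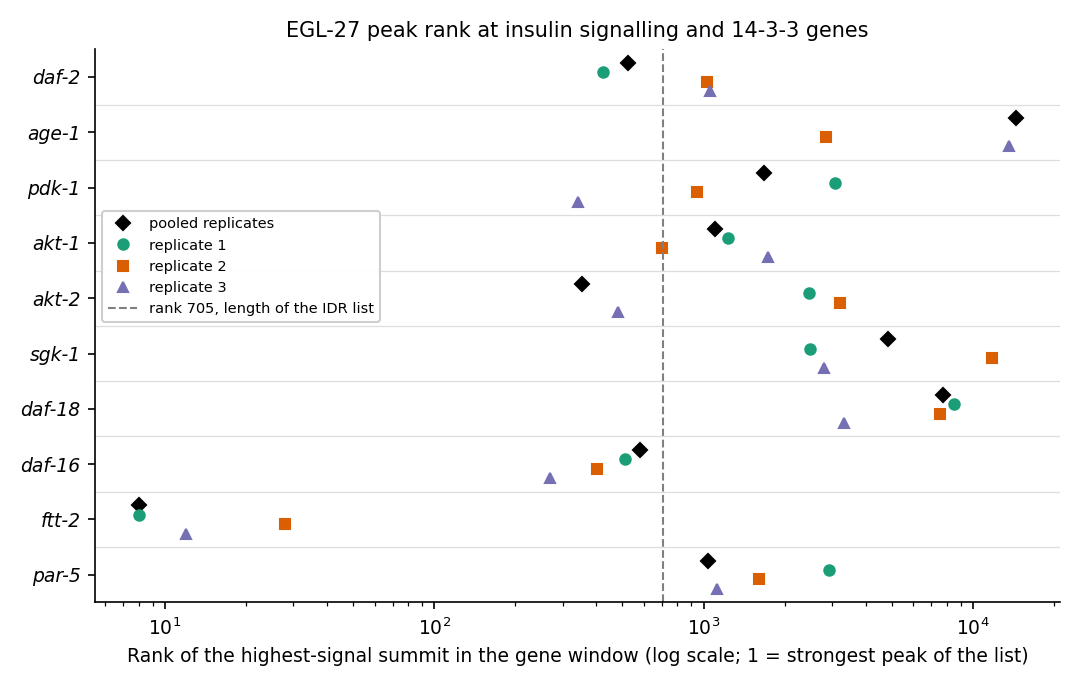
Rank of the highest-signal summit in each gene window (horizontal axis, log scale, 1 being the strongest peak of a list) in the pooled list and in each replicate, with genes ordered by role down the page and a dashed line at rank 705. The 4 marks of ftt-2 lie between rank 8 and rank 28, apart from those of every other gene, and age-1 has no mark for replicate 1.

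In the top lists, 3 of the 10 genes were represented in replicate 1 (daf-2, daf-16 and ftt-2), 3 in replicate 2 (akt-1, daf-16 and ftt-2) and 4 in replicate 3 (pdk-1, akt-2, daf-16 and ftt-2). Over all genes these shares were 4.88%, 5.37% and 4.88%. The mean was 3.33 ± 0.577 genes (SD, n = 3 replicates). Genes in the top lists of all 3 replicates made up 1.59% of all genes and here were daf-16 and ftt-2. The IDR call at daf-2 therefore had a top-list peak in replicate 1 alone, and that at akt-2 in replicate 3 alone. In whole larvae, strong binding in few cells and weak binding in many cannot be told apart for any of these peaks.

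The windows of these genes were longer than usual, which matters for a count of summits. Their median was 10905 bp, against 7026 bp over all protein-coding genes. The 10 windows held 6 IDR summits in 160800 bp, or 3.73 per 100 kb, against 0.722 per 100 kb over all gene windows. Without ftt-2 the density was 2.6 per 100 kb. Among genes with windows under 10000 bp, 2 of 4 (ftt-2 and akt-2, not akt-1 and par-5) held an IDR summit, against 4.52% of all genes of that class. Between 10000 and 20000 bp none of 4 did (age-1, pdk-1, sgk-1 and daf-18), against 9.27%, and over 20000 bp both did (daf-2 and daf-16), against 13.1%. These length classes were chosen after the values were seen. The genes pdk-1, akt-2, sgk-1 and ftt-2 lie on chromosome X, which held 3 of the 6 IDR summits here and 24.0% of all nuclear IDR peaks.

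**Figure D3:**
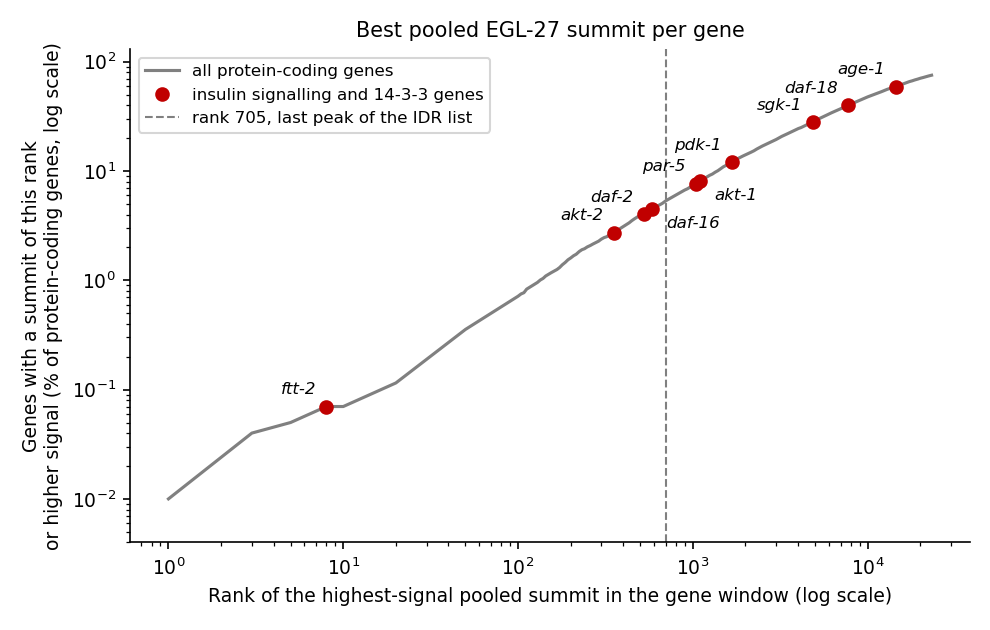
Share of protein-coding genes with a pooled summit of a given rank or higher (vertical axis, percent, log scale) against that rank (horizontal axis, log scale); red points place each of the 10 genes on the curve of all genes by its best pooled rank. From ftt-2 at the lower left to age-1 at the upper right, 4 genes lie left of the dashed line at rank 705 and 6 to its right.

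Of 91 further genes of the pathway that were listed, 90 were annotated, and 8 of these (8.89%) had an IDR summit, against 5.37% of all genes. Among insulin-like peptide genes 1 of 39 did, ins-39, with rank 388 and signal 41.5 at −648 bp. Its window was in the top list of replicate 3 only (best ranks 5740, 2262 and 164 in replicates 1, 2 and 3). Among adaptors, phosphatases and other regulators 2 of 21 did. The gene pptr-1, which encodes a PP2A phosphatase subunit that acts on AKT-1, had rank 108 and signal 68.2 at −1471 bp and was in the top list of every replicate (ranks 258, 53 and 330). The second was imp-2, an intramembrane protease gene, with rank 490 and signal 37.8 at −387 bp, 24 bp from a 5′ end of enpl-1.

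Among cofactors and regulators of DAF-16, 4 of 14 (28.6%) had an IDR summit, against 5.37% of all genes, the largest share of the 4 groups. The groups were not matched for window length. Over all genes the share was 4.52% for windows under 10000 bp and 13.1% for those over 20000 bp. The cofactor and regulator genes with a summit were skn-1, an Nrf-type stress factor gene (rank 139, signal 62.9), hlh-30, the gene of a TFEB-type factor (rank 222, signal 51.9), smk-1, a DAF-16 cofactor gene (rank 292, signal 46.5) and daf-12, a nuclear hormone receptor gene (rank 323, signal 44.6). The highest-signal summits of skn-1, hlh-30 and daf-12 lay in introns, those of skn-1 and hlh-30 being 1731 and 1042 bp upstream of an internal 5′ end, as at the internal daf-16 site. A second IDR summit of hlh-30 lay in a promoter window of the gene. The smk-1 summit lay at −1299 bp, closer to a 5′ end of vps-60, at 373 bp. With the nearest 5′ end only, smk-1 was therefore not counted. The windows of skn-1, hlh-30 and daf-12 held a summit in the top list of every replicate, and that of smk-1 in replicates 1 and 3. Of 16 DAF-16 target genes, icl-1 alone had an IDR summit (rank 134, signal 63.7), and it lay at −3502 bp, 97 bp from the 5′ end of srh-2. The icl-1 window was in the top list of replicate 3 only (best ranks 1315, 2680 and 74 in replicates 1, 2 and 3). The list was drawn up with earlier results of these data known, and the groups are small.

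The genes whose best ranks in the 3 replicates were most like those of ftt-2 (8, 28 and 12) were pqn-41 (9, 33 and 5), sma-9 (16, 29 and 21) and egl-27 (7, 26 and 4). Likeness was the sum of absolute differences in log10 rank over the 3 replicates, 0.503, 0.559 and 0.567 for these 3, among 1042 genes with an IDR summit and a peak in every replicate. The IDR summits of pqn-41 and egl-27 lay in introns and had ranks 7 and 4, and that of sma-9, rank 11, lay at −3001 bp. The gene egl-27 is itself the one fused in the transgene.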

How the data were processed

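ChIP-seq of GFP-tagged EGL-27 was deposited as peak lists for 3 biological replicates of one group, taken from the labels' replicate numbers, with a pooled and an IDR-thresholded list. Per the file headers and deposited library notes, each list was made against a control alignment (not used here). Not given in the sources used here were aligner, peak caller, IDR threshold and read depth; peak heights therefore carry no error of their own. Column 7 holds the authors' signal value and column 9 the deposited −log10 q-value, which is tied at the top of every list and was not used for ranking. Lists in ce11 were used with the WBcel235 genome and Ensembl release 115 annotation, whose chromosome lengths hold every peak; the ce10 lists were left out.

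Peaks were ranked by signal with Python 3.11.15, numpy 2.4.6 and pandas 2.3.3, and figures were drawn with matplotlib 3.10.9. Summits were assigned to gene windows, and the assignment was tested on simulated data. No p-value was computed: there is no second condition, and the lists of genes were chosen with earlier results of these data known. All 10 genes are named, and of the further pathway genes those with an IDR summit. Neighbouring genes named at summits outside the IDR list were chosen after their values were seen. Alternatives were other window reaches, promoter windows, nearest 5′ end only, stricter lists, other overlap, other motif window and leaving out each replicate.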

Additional observations from a re-analysis of the deposited data

How the results depend on the processing

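The 4 genes with an IDR summit were the same (daf-2, akt-2, daf-16 and ftt-2) with 2000 or 1000 bp upstream, with the nearest 5′ end only, and with 1 bp of peak overlap in place of the summit; 3 remained in the upstream part alone or in promoter windows, where daf-2 dropped out. In the 352 IDR peaks of highest signal, 1 gene (ftt-2) and 2 summits remained, since the akt-2 peak had rank 353. The share of all protein-coding genes with a summit, 5.37%, changed as well. It was 3.56% and 2.7% with 2000 and 1000 bp upstream, 2.78% with the nearest 5′ end only and 5.64% with peak overlap. In the upstream part alone it was 4.58%, in promoter windows 2.22% and in the 352 peaks 2.72%. Keeping only IDR peaks found in the top lists of both other replicates when a replicate was left out gave 1 to 2 genes and 2 to 3 summits in these windows; ftt-2 was always among them, and daf-16 only without replicate 2. Among all protein-coding genes, 2.3%, 2.19% and 1.81% still had a summit without replicates 1, 2 and 3. These versions kept 305, 305 and 239 of the 705 peaks. The list they filtered was derived from all 3 replicates, so the replicate left out still shaped its peaks. For the further pathway genes, the count of 8 became 5 with 1000 bp upstream, 3 in promoter windows, 5 with the nearest 5′ end only and 3 to 6 with a replicate left out. The shares of all genes beside these counts are those just given. The mean number of genes in top lists, 3.33, became 1.67 with lists of 352 peaks and 5.0 with lists of 1410, and 3.0 to 3.5 with a replicate left out. Shares of all genes for lists of 352 and 1410 peaks were not computed. The internal daf-16 summit lay at −1597 bp from the nearest 5′ end and at 19413 bp from the outermost one, a change of sign that follows from which end is used. The number of summits holding each word was the same with 100 bp either side, while the copies of GAGAGA at the internal daf-16 summit numbered 20 in place of 8. The cause of the other changes was not tested. No paired analysis was possible because all replicates belong to a single group.

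The few replicates, peak lists without read counts and no untagged or untreated sample limit these results to positions and ranks. Peaks of the relaxed lists include background, so a low-ranked summit is no sign of binding, and a gene without an IDR summit is not shown to be unbound.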

Other observations

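Several summits lay closer to a neighbouring gene than to the pathway gene whose window held them. The best sgk-1 summits of replicates 1 and 2 lay 727 and 431 bp from a 5′ end of mua-6, which encodes an intermediate filament protein. Replicate 3 had its best one elsewhere, 1347 bp upstream of sgk-1. Its nearest 5′ end was that of sgk-1, but it lay within the annotated mua-6 gene. All 3 best par-5 summits lay nearest to M117.3, at 6, 154 and 22 bp from its 5′ end. Among the further pathway genes, the smk-1 summit lay 373 bp from vps-60, an ESCRT gene, and the imp-2 summit 24 bp from enpl-1, which encodes an endoplasmic reticulum chaperone. For the IDR summits of daf-2, akt-2, daf-16 and ftt-2 the nearest protein-coding 5′ end was in each case that of the named gene itself.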
